A study of Mus musculus with 3 samples.

Results

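The comparison set the effector memory library of CD8+ T cells against the naive library, gene by gene, in a series of 3 RNA-seq libraries. The sources used here describe the libraries as from the spleens of untreated wild-type mice. The comparison used the 2 libraries chosen by the labels. The third, of central memory cells, is given beside them as a further value for each gene. It enters the calls only through the scaling factors, which were computed over all 3 libraries. Each group is 1 library, so no difference below has a replicate check and none has a p-value. The sources used here give neither the number of animals behind a library nor how the 3 subsets were separated. No treatment, transgene or deletion is labelled in any group.

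CD8 T cells recognise peptides on MHC class I and kill infected or malignant cells. A naive cell is held in a small, non-dividing state by factors such as KLF2 and FOXO1 and circulates through lymph nodes. After it meets antigen it divides, builds granules of perforin and granzymes and switches its fuel use to glycolysis; effector memory cells are descendants that patrol blood and tissues.

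Levels are CPM, counts scaled to a common effective library size, given in the order naive, central memory and effector memory where 3 values stand together. A gene was measured when it had at least 5 CPM in naive or effector memory, which 10087 of 25638 genes did. It was called higher or lower in effector memory when it differed by at least 2-fold and the 95% exact counting interval of the ratio excluded 1. This is a rule of size. A count of 0 was set to 3 counts (0.108 CPM in naive and 0.0938 in effector memory) and the fold is then written as at least; intervals and these floors cover counting error only. By this rule 2247 genes were called higher (22.3% of those measured) and 1576 lower (15.6%), 37.9% in either direction, with a median log2 ratio over all measured genes of 0.06. Against these shares the lists below are to be read. A gene near 0 in naive is measured only through effector memory and then differs by the way it was chosen, so counts of measured members in lists of such genes are descriptions.

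The libraries held 26876909, 35846315 and 33087462 counts. Low counts came mostly in pairs: in naive 734 genes had a count of 2 and only 278 a count of 1, and 69% of counts from 1 to 10 were even (67.3% in effector memory). Counts are thus not single independent events, and with a floor of 3 pairs in place of 3 counts every bound below would be 2 times smaller. The intervals below take each count as 1 event, so they are too narrow, most of all for genes with 2 counts in naive. All 8 CD8 T cell markers passed 5 CPM in every library, summed at 4846, 3761 and 2357 CPM. B cell markers were low and not even: 10 genes summed to 37.5, 6.9 and 4.44 CPM, and 5 of the 10 were at 0 in effector memory. Of other cell types, 8 of 10 macrophage markers were at 0 in effector memory and 1 in naive. The 10 summed to 7.8, 4.44 and 24.1 CPM, with Cd68 at 3.38, 4.05 and 21.1 CPM. Of 7 NK cell markers 3 were at 0 in effector memory, Ncr1 among them, and 3 in naive. The 7 summed to 39, 139 and 93.1 CPM, and 1, 5 and 2 of them reached 5 CPM. Of 6 dendritic cell markers 4 were at 0 in effector memory. The 6 summed to 3.09, 2.23 and 12.5 CPM, with Xcr1 at 2.01, 1.56 and 12.3 CPM. The 5 CD4 and regulatory T cell markers summed to 11.9, 57.5 and 117 CPM, with Zbtb7b at 1.33, 37.4 and 93.6 CPM. Of 6 mast cell and basophil markers 3 were at 0 in effector memory. These 6 summed to 2.62, 27.3 and 32.5 CPM, with Kit at 0.467, 23.8 and 26.9 CPM. The part of other cells in the results was not tested. In naive 19 receptor beta variable segments reached 5 CPM and the most used held 8.99% of Trbv counts. A single segment, Trbv12-1, held 98.4% in effector memory and 99.7% in central memory, which the labels do not account for. For the alpha chain the most used segments, Trav16n, Trav14n-1 and Trav21-dv12, held 5.43%, 24.4% and 12.2% of 6502, 1964 and 640 Trav counts. Alpha segments that reached 5 CPM numbered 15, 1 and 0. Subset and receptor use cannot be told apart here. In such bulk libraries fewer cells expressing a gene and less RNA per cell cannot be told apart either.

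Of the genes checked against the labels, Cd44 went with them. Cd44, the adhesion receptor of antigen-experienced cells (ENSMUSG00000005087.17, chromosome 2, 102811141 to 102901665; coordinates are GENCODE M21 on GRCm38), stood at 2.95, 45.8 and 113 CPM and was 38.2-fold higher (interval 30.7 to 48.2). Cd3e was not called, with a ratio of 0.848 (interval 0.825 to 0.871). Both CD8 chains were called lower, and Cd8b1 stood at 1055, 539.6 and 276 CPM. These genes do not check whether the cells were resting memory cells or dividing ones. Most of the division genes below were called higher, and the part of dividing cells in the effector memory library was not tested.

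**Figure D1:**
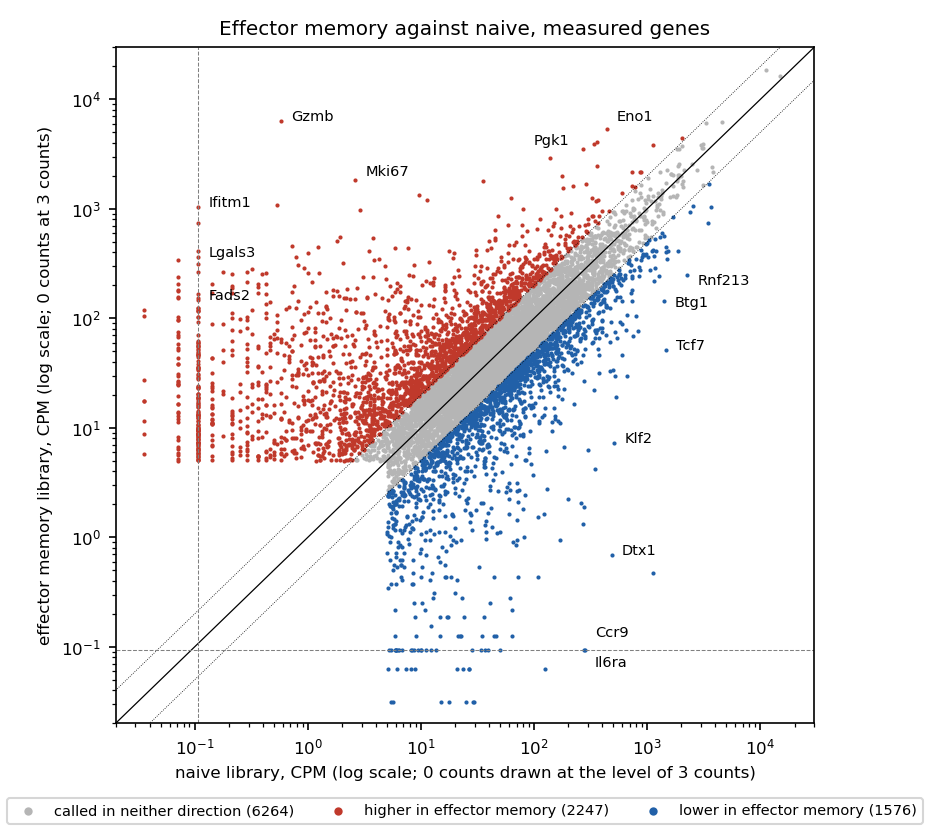
Level of each measured gene in the naive library (horizontal axis) and the effector memory library (vertical axis), in CPM on log scales; each point is 1 of 10087 genes, red for the 2247 called higher, blue for the 1576 called lower and grey for the rest. Dotted lines mark a 2-fold difference and dashed lines the level of 3 counts, where genes at 0 are drawn; the red points reach further from the diagonal than the blue ones.

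The 2 directions differed in shape as well as number. Of the genes called higher, 1114 lay between 2- and 4-fold and 333 at 64-fold or more. Of the genes called lower, 1052 lay between 2- and 4-fold and 75 at 64-fold or more. Genes called higher held 6.38% of all naive counts, 10.8% of central memory counts and 26% of effector memory counts. Genes called lower held 22.3%, 16.4% and 6.68%. Levels per kilobase of exon allow only a rough comparison between genes, since the length takes in all annotated exons of a gene. By this measure Gzmb was at rank 3 among protein-coding genes in effector memory (4399 CPM per kb) and at rank 9973 in naive. Ifitm1 moved to rank 37, Pgk1 from rank 576 to rank 25 and Tpi1 from rank 3601 to rank 59. In the other direction Klf2 went from rank 109 to rank 7423 and Btg1 from rank 111 to rank 1892. B2m, the light chain of MHC class I, stayed among the top 10 at ranks 6, 8 and 10.

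A set of 190 genes (1.88% of those measured) had at most 3 counts in naive and at least 5 CPM in effector memory. No count at all was found in naive for 132 of them, 185 were protein coding and 26 reached 100 CPM. Only 42 genes (0.416%) had the reverse pattern, and 18 of these were receptor or immunoglobulin segments. Genes named from these sets were chosen after their values were seen. Central memory stood between for many gained genes: 65 of the 190 had at least 5 CPM there, 21 had at most 3 counts, and the median level was 0.108, 1.65 and 16.8 CPM with 0 set to 3 counts. The gained genes near 0 in both other libraries included Pparg, a lipid-sensing nuclear receptor, at 0, 0 and 13.4 CPM, Tnfrsf11b, which encodes the decoy receptor osteoprotegerin, at 0, 0 and 9.38 CPM, and the linker histone Hist1h1b at 0, 0 and 16.3 CPM.

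**Figure D2:**
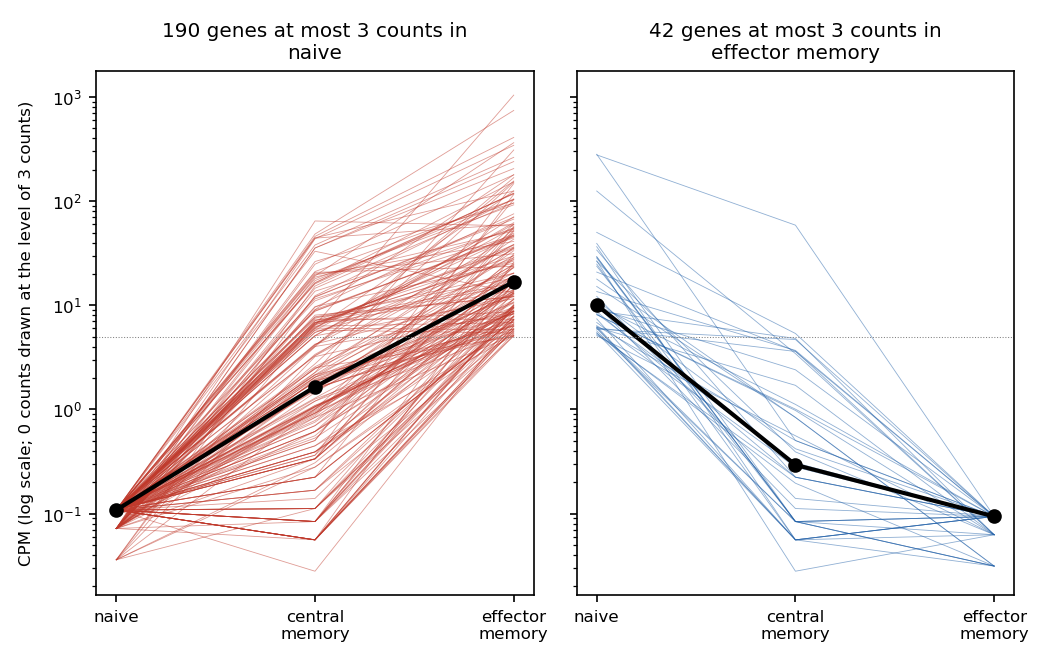
Level in CPM (log scale) in the 3 libraries of the 190 genes with at most 3 counts in naive (left, red lines) and the 42 with at most 3 counts in effector memory (right, blue lines); 1 line is 1 gene, black lines join the medians, the dotted line is 5 CPM and genes at 0 are drawn at the level of 3 counts. The left median runs from 0.108 through 1.65 to 16.8 CPM and the right from 10.1 through 0.293 to 0.0938 CPM.

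Several of the genes gained at higher levels encode surface, secreted or metal-binding proteins. Ifitm2, of the interferon-induced transmembrane family that restricts virus entry, stood at 0, 0.363 and 116 CPM, beside its neighbour Ifitm1 on chromosome 7. Both main metallothioneins, small metal-binding proteins, were at 0 counts in naive: Mt1 stood at 0, 5.95 and 125 CPM and Mt2 at 0, 4.16 and 70.7 CPM. The bound for Mt1 was at least 1161-fold higher. Ltb4r1, the high-affinity receptor for the lipid attractant leukotriene B4, stood at 0, 0.502 and 104 CPM and was at least 963-fold higher. Tnfrsf8, which encodes CD30, stood at 0, 0.335 and 52.8 CPM, and Ebi3, a subunit shared by 2 cytokines of the interleukin 12 family, at 0, 0.558 and 24.3 CPM. Anxa1, an annexin, stood at 0, 18 and 92.2 CPM and Cd80, a costimulatory ligand better known from antigen-presenting cells, at 0, 6.84 and 15.5 CPM. In this group the effector memory library was the highest, and central memory was nearer to naive than to it in CPM for each gene named so far in the paragraph. The further granzymes of chromosome 14 were also gained, Gzme at 0, 16.1 and 119 CPM, Gzmf at 0, 7.51 and 20.3 CPM and Gzmg at 0, 20 and 31.3 CPM. Gzmd to Gzmg are close copies of each other, so the division of reads among them is uncertain.

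All 20 measured genes for mitotic kinesins and cytokinesis were called higher (median log2 ratio 6.71), as were 19 of 20 kinetochore and centromere genes (4.88), 24 of 24 genes of replication licensing and the replication fork (2.88) and 21 of 22 of homologous recombination and the Fanconi pathway (3.60). Kif14, a kinesin of cytokinesis, had 2 counts in naive, stood at 0.0719, 14.6 and 96.4 CPM and was 1342-fold higher (interval 371 to 11083). Aspm, a spindle pole protein, also had 2 counts and stood at 0.0719, 35.6 and 206 CPM. Nuf2, a kinetochore subunit that binds microtubules, was 1436-fold higher (interval 397 to 11863). Cdc6, which loads the replicative helicase, stood at 0.288, 17.8 and 103 CPM, and Mcm10, which activates it, at 0.252, 15.2 and 97.7 CPM. Rad54l, a motor of homologous recombination, was 170.1-fold higher (interval 103 to 304). Central memory lay between in each of these 6 genes.

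Of 20 condensin and cohesin genes 10 were called higher and none lower (median 0.79). Ncapg, a subunit of condensin I, stood at 0.0719, 24.8 and 179 CPM, and Esco2, an acetyltransferase for cohesin in S phase, at 0.0719, 12 and 69.9 CPM, while Smc4, a core condensin subunit, had a ratio of 1.17 (interval 1.14 to 1.19) and Pds5b, a cohesin regulator, a ratio of 0.945 (interval 0.905 to 0.987). The replication-dependent histones, made in S phase, had 27 of 29 measured genes called higher and 1 lower (median 5.53), out of 60 in the table, and 31 of the 60 were below 5 CPM in both libraries. Hist1h3c had 1 count in naive and stood at 0.0359, 1 and 17.4 CPM. These messages mostly lack a poly(A) tail and their genes are near-identical copies, so their levels and the division of reads among them are uncertain. Central memory did not lie between for these histones as a family, since their summed level was 59.3, 27.9 and 358 CPM. Hist1h1c, a linker histone also made outside S phase, had a ratio of 0.926 (interval 0.833 to 1.03).

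In the list of DNA methylation and Polycomb genes 7 of 20 were called higher and 5 lower (median 0.11). Uhrf1, which guides maintenance DNA methylation to new strands, stood at 7.69, 83.5 and 436 CPM and was 56.7-fold higher (interval 49.5 to 65.2). Ezh2, the methyltransferase of Polycomb repressive complex 2, was 11.2-fold higher (interval 10.3 to 12.2), while its relative Ezh1 had a ratio of 0.956 (interval 0.911 to 1) and the shared subunit Eed a ratio of 1.03 (interval 0.966 to 1.09). Called lower were Tet1, which oxidises methylcytosine, at 44.2, 2.62 and 5.41 CPM, the H3K27 demethylase Kdm6b at 111, 36.7 and 25 CPM, and the Polycomb repressive complex 1 members Cbx7 at 231, 284 and 69.4 CPM and Bmi1 at 76.1, 39.9 and 33.2 CPM.

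Activators and brakes of the cell cycle were called higher together. Of 13 measured G1 cyclin, kinase and inhibitor genes 9 were called higher and 1 lower (median 1.44). Cdkn1a, which encodes the kinase inhibitor p21 (ENSMUSG00000023067.14, chromosome 17, 29090976 to 29100727), had 2 counts in naive, stood at 0.0719, 3.99 and 156 CPM and was 2172-fold higher (interval 601 to 17937). Cdkn2a, the locus of p16 and p19ARF, was at 0 counts in naive and stood at 0, 1.28 and 13.7 CPM. Cdkn2c, which encodes p18, was 30.8-fold higher (interval 23.9 to 40.3). By contrast Cdkn1b, which encodes p27, the inhibitor of resting lymphocytes, had a ratio of 0.756 (interval 0.73 to 0.783). Among the cyclins Ccne2 was 16.4-fold higher (interval 12.4 to 21.9), whereas Ccnd2 was 2.73-fold lower (interval 2.66 to 2.8). Among E2F and retinoblastoma family genes 7 of 18 were called higher and 1 lower (median 0.80): the repressors E2f7 and E2f8 were at 0 counts in naive and stood at 47.1 and 104 CPM in effector memory, E2f1 was 43.7-fold higher, and the retinoblastoma relative Rbl2 had a ratio of 1.17 (interval 1.12 to 1.22).

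Promoter letters of the division genes are shown because these genes moved together. The cell cycle homology region (CHR), searched as TTTGAA on both strands, lay in 16 of 19 windows of the kinesin and cytokinesis list (84.2%) and in 7 of 18 of the kinetochore list (38.9%), against 18.1% of all 27025 RefSeq windows, 15.6% of those of genes called higher and 11% of those called in neither direction. A window runs from 250 bases before to 50 after the start. With the 250 bases before the start alone the shares were 31.6%, 16.7% and 16.3%, so most kinesin windows with the letters had them only across or after the annotated start. Another division list searched, of replication licensing and the replication fork, had windows for 18 of its 24 genes. These are too few for a share under the limit applied to the sterol genes below, and 4 of the 18 held the letters. Shares were computed for 10 motifs over 7 lists, 3 call groups and all windows, and CHR was singled out after all were seen. A match is a description of letters. The following 100 bases before the start (RefSeq, GRCm38.p6) of 3 kinesin genes have the match in capitals and were picked because it lies within 20 bases of the start. Kif11 is on chr19:37376282-37376381, plus strand; Kif15 on chr9:122950981-122951080, plus strand; Kif22 on chr7:127042421-127042520, minus strand. Each is printed on the strand of its gene.
Kif11: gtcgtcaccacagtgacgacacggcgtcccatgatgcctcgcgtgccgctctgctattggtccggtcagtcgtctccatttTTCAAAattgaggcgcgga
Kif15: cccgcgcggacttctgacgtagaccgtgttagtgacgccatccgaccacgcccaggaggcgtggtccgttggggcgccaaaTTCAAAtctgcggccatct
Kif22: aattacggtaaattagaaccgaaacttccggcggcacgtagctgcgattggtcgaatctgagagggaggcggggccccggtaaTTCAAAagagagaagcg

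Kif11, the spindle kinesin Eg5, stood at 0.791, 59 and 362 CPM and was 457-fold higher (interval 302 to 730.1), Kif15 at 1.01, 28 and 259.5 CPM and Kif22 at 10.2, 43.9 and 201 CPM. Kinesins that move cargo outside mitosis had other values. Over all 25 measured genes with a Kif symbol 15 were called higher and 4 lower; Kif1b was 8.29-fold lower (interval 7.62 to 9.03), Kif21b stood at 998, 1059.5 and 484 CPM and Kif3c had a ratio of 0.962 (interval 0.872 to 1.06).

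Sugar transport and glycolysis gave the largest gain in counts. Of 23 glycolytic enzyme and transporter genes 19 were called higher and none lower (median log2 ratio 3.03), and their summed level went from 2593 CPM in naive through 4243 in central memory to 28441 in effector memory. The 13 genes from the glucose transporters to the lactate exporter Slc16a3 in the plot of glycolysis, hypoxia and lipid genes had central memory values between the other libraries in every case. Aldoa, an aldolase, stood at 268, 342 and 3499.7 CPM, Eno1, an enolase, at 437, 717 and 5338 CPM, and Ldha, which makes lactate, at 338, 486 and 3911 CPM. Tpi1, triosephosphate isomerase, was 50.8-fold higher (interval 47.7 to 54.1). Aldoc, the aldolase best known from brain, had 2 counts in naive, stood at 0.0719, 9.07 and 179 CPM and was 2496-fold higher (interval 691 to 20617). The muscle-type enolase Eno3 had a ratio of 1.25 (interval 1.13 to 1.38), and Ldhb, the form that favours pyruvate, a ratio of 0.521 (interval 0.421 to 0.643). Gapdh stood at 14.2, 9.18 and 93.4 CPM, far below its neighbours in the pathway; it has many processed copies in the genome, and the sources used here do not say how reads with several matches were counted.

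Genes of the hypoxia response, many of them targets of the oxygen-sensing factor HIF-1, were called higher in 15 of 19 measured members and lower in none (median 2.50). Bnip3, a receptor for the removal of mitochondria (ENSMUSG00000078566.8, chromosome 7, 138890836 to 138909519), stood at 3.77, 10.7 and 544 CPM and was 144-fold higher (interval 119 to 177). Vegfa, the vascular growth factor, was 285-fold higher (interval 145 to 661). The collagen-modifying enzymes P4ha2 and Plod2 stood at 0, 0.223 and 51.4 CPM and at 0.719, 15.9 and 175 CPM. Pdk1, a kinase that holds back pyruvate oxidation, is a listed HIF-1 target that was not called, with a ratio of 0.927 (interval 0.903 to 0.951), and the oxygen sensor Egln2 had a ratio of 1.05 (interval 0.982 to 1.13). Adm, the remaining listed gene, was at 0 in all 3 libraries.

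**Figure D3:**
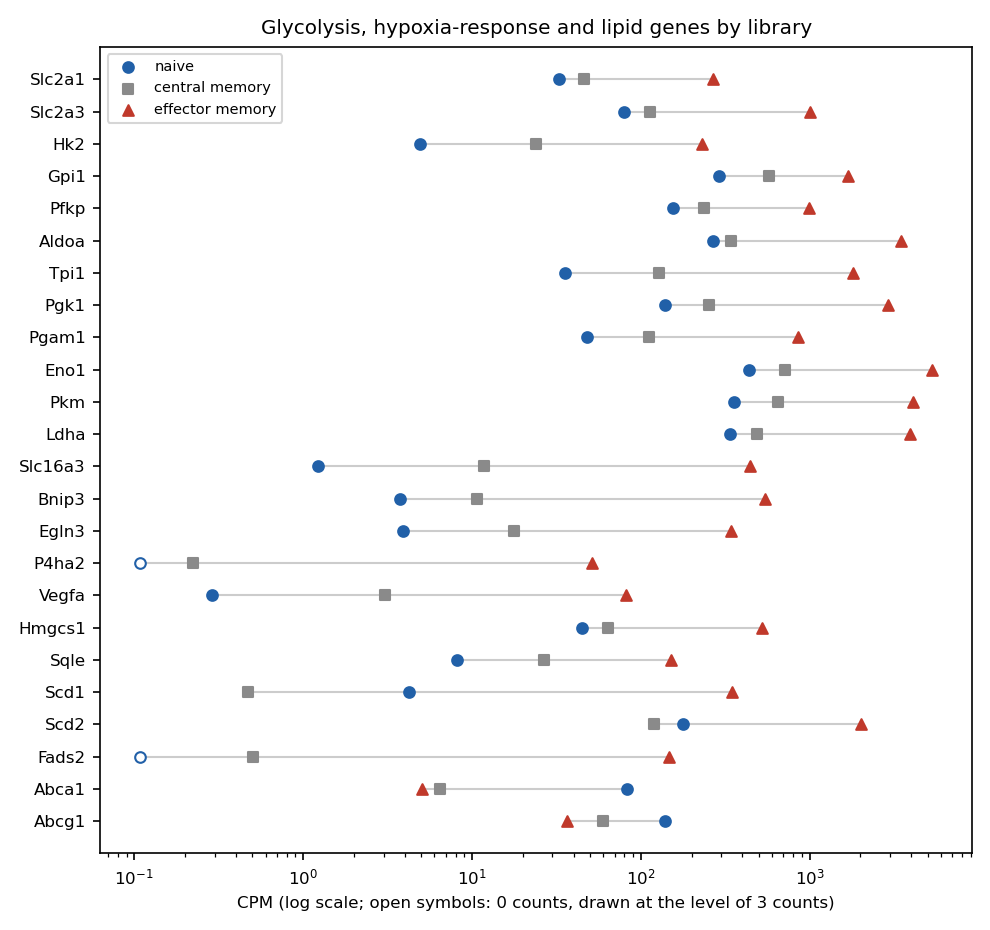
Level in CPM (log scale) of 24 genes of glycolysis, the hypoxia response and lipid metabolism in naive (blue circles), central memory (grey squares) and effector memory (red triangles), chosen after their values were seen; open symbols are genes at 0 counts, drawn at the level of 3 counts. Effector memory is the highest library for 22 genes, and Abca1 and Abcg1 at the foot are highest in naive.

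Most mitochondrial genes were called in neither direction. Nuclear subunits of complex I had 12 of 37 called higher and none lower (median 0.89), mitochondrial ribosomal proteins 26 of 77 and none (median 0.69), and tricarboxylic acid cycle genes 5 of 23 and none (median 0.65). The 10 measured genes of the mitochondrial genome had none called in either direction (median 0.38), with mt-Nd4 at 982, 570.3 and 1140.3 CPM. Ndufb7 was 3.06-fold higher (interval 2.85 to 3.3), Fh1, fumarase, 3.41-fold higher (interval 3.16 to 3.68) and the cytosolic isocitrate dehydrogenase Idh1 6.91-fold higher (interval 5.58 to 8.63). Of 10 pentose phosphate genes 4 were called higher and 1 lower (median 0.58), and Tkt, transketolase, was 4.94-fold higher (interval 4.78 to 5.1).

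Of 23 genes of sterol synthesis and uptake 22 were called higher and none lower (median 2.60), and the remaining one, Tm7sf2, had a ratio of 1.55 (interval 1.34 to 1.79). Cyp51, which removes the methyl group of lanosterol, stood at 13.1, 26.5 and 232 CPM. The exporter Abca1, the transporter that loads cholesterol onto apolipoproteins (ENSMUSG00000015243.4, chromosome 4, 53030787 to 53159895), stood at 83.1, 6.45 and 5.1 CPM and was 16.3-fold lower (interval 13.9 to 19.2). Abcg1, a second exporter, was 3.8-fold lower (interval 3.56 to 4.06), and the ubiquitin ligase Mylip 6.74-fold lower (interval 6.06 to 7.51). These 3 are known targets of the liver X receptors, as are Srebf1 and Lpcat3, which were called higher at 134 and 289 CPM and 37 and 97.2 CPM in naive and effector memory. The receptor gene Nr1h2 had a ratio of 1.18 (interval 1.13 to 1.23). The list of sterol efflux thus had 2 higher and 3 lower of 7 (median -0.89), and its summed level was 623.5 CPM in naive and 602.5 in effector memory.

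Desaturases stood apart within fatty acid synthesis, where 7 of 14 were called higher and 1 lower (median 1.03). Fads2, the delta-6 desaturase of polyunsaturated fatty acids (ENSMUSG00000024665.8, chromosome 19, 10062765 to 10101746), had no count in naive, stood at 0, 0.502 and 147 CPM and was at least 1367-fold higher. Scd1, the stearoyl desaturase of liver and fat, stood at 4.24, 0.475 and 347 CPM and Scd2, its relative, at 178, 119 and 2006 CPM; in both, central memory was the lowest of the 3 libraries. Fads1 was 6.34-fold higher (interval 5.76 to 7). Acss2, which makes acetyl-CoA from acetate, and the elongase Elovl5 were not called, with a ratio of 0.875 (interval 0.821 to 0.932) and a ratio of 0.821 (interval 0.789 to 0.854).

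The sterol regulatory element, searched as CACCCCAC on both strands, was present in 2.77% of all windows. Windows existed for 17 of the 23 sterol genes, under 80%, so a share over the list would be void and is not given. The 2 sterol genes of the list with the letters are shown with 200 bases before the start and the match in capitals: Hmgcs1, the first committed enzyme of the pathway, at chr13:119690151-119690350, plus strand, and Acat2, which condenses acetyl-CoA, at chr17:12960726-12960925, minus strand. They were picked because they hold the match.
Hmgcs1: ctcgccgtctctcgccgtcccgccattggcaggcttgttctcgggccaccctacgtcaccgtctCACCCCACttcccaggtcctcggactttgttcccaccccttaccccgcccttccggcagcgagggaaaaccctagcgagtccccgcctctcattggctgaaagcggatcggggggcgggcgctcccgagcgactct
Acat2: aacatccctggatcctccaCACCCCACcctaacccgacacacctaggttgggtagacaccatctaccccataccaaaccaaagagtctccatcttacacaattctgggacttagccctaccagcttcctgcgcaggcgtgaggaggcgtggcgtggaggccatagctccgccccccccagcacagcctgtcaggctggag

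Hmgcs1 stood at 44.7, 64.4 and 521 CPM and was 11.6-fold higher (interval 11 to 12.3). Acat2 stood at 14.8, 30.5 and 95.4 CPM and was 6.43-fold higher (interval 5.8 to 7.14). Both had their lowest level in naive.

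Targets of the stress factor ATF4, many of them for amino acid supply, were mostly called higher, and Atf4 itself was not called. Of 14 measured ATF4 targets 9 were called higher and 1 lower (median 2.52), while Atf4 stood at 204, 95 and 268 CPM. Asns, asparagine synthetase, stood at 0.431, 14.8 and 111 CPM and was 257-fold higher (interval 147 to 499). Stc2, a secreted glycoprotein, was 69.9-fold higher (interval 45.1 to 115). Ddit3, which encodes CHOP, had a ratio of 1.1 (interval 0.955 to 1.26), and Ppp1r15a, which reverses the block on translation, was the member called lower, 5.39-fold lower (interval 5.08 to 5.72). In the serine and one-carbon pathway 7 of 14 were called higher and 2 lower (median 1.03): Psat1, of serine synthesis, stood at 33.9, 60.2 and 301 CPM and Mthfd2, of mitochondrial folate metabolism, at 34.8, 55.5 and 138 CPM, while Mtr, methionine synthase, was 2.38-fold lower (interval 2.24 to 2.53) and Slc25a32, the mitochondrial folate carrier, 3.57-fold lower (interval 3.22 to 3.96). Nucleotide synthesis had 9 of 24 higher and 1 lower (median 0.43). Rrm2, the S-phase subunit of ribonucleotide reductase, was 396-fold higher (interval 274 to 596), its p53-induced relative Rrm2b was 2.95-fold lower (interval 2.67 to 3.26), and the purine enzyme Atic had a ratio of 0.942 (interval 0.906 to 0.98).

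Among 20 cytosolic tRNA synthetases 5 were called higher and none lower (median 0.83), among 37 proteasome subunits 11 and none (0.85), among 25 genes of nuclear pore and import 11 and 1 (0.78), and among 19 chaperones 3 and none (0.52). Ran, the GTPase of nuclear transport, stood at 208, 251 and 692 CPM and Nup153, a basket nucleoporin, was 2.31-fold lower (interval 2.23 to 2.39). Hsp90ab1 stood at 2018, 2009 and 4461 CPM. Of 24 ribosome biogenesis genes 3 were called higher and 4 lower (median -0.35), with Npm1 at 739.9, 668 and 1598 CPM and Utp20 at 162, 94.6 and 43.7 CPM, and of 78 ribosomal protein genes 2 were called higher and 1 lower. The MYC network had 3 of 11 called higher and none lower (median -0.16). Myc itself stood at 178, 303 and 156 CPM and was not called, whereas its relative Mycn was 304-fold higher (interval 118 to 1117) and the antagonist Mxd3, with 2 counts in naive, stood at 0.0719, 13.7 and 53.9 CPM. The unfolded protein response had 9 of 22 higher and 1 lower (median 0.55); Xbp1 was 4.14-fold higher (interval 3.85 to 4.46) and the co-chaperone Dnajb9 6.53-fold lower (interval 5.78 to 7.4).

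Redox genes were called higher in 12 of 20 measured members and lower in 3 (median 1.5). Txn1, thioredoxin, stood at 30.4, 105 and 419 CPM and was 13.8-fold higher (interval 12.9 to 14.8), and Txnip, which binds and inhibits it, was 2.28-fold lower (interval 2.23 to 2.33). Srxn1, sulfiredoxin, was at 0 counts in naive and stood at 0, 2.46 and 19 CPM, and Prdx4 was 41.4-fold higher (interval 27.4 to 65.6). Gclc, the rate-limiting enzyme of glutathione synthesis, was 2.5-fold lower (interval 2.32 to 2.69).

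Of 18 activation-linked receptors and STAT5 feedback genes 13 were called higher and 1 lower (median 2.65). Socs2, a feedback inhibitor induced by STAT5, had 2 counts in naive and stood at 0.0719, 18.6 and 51.7 CPM; Socs3, which restrains interleukin 6 signals, was 7.09-fold lower (interval 6.56 to 7.68). Tnfrsf9, which encodes 4-1BB, stood at 5.93, 27 and 437 CPM. Il18r1 had a ratio of 1.62 (interval 1.55 to 1.69) and Il2rg, the common gamma chain, a ratio of 0.594 (interval 0.573 to 0.616). Cytokine messages were scarce: 7 of 20 listed genes were measured, 4 called higher and 1 lower (median 1.93). Ifng stood at 0.18, 1.06 and 1.28 CPM, below the limit of 5 CPM, and Il2 was at 0 in all 3 libraries. Spp1, osteopontin, stood at 0, 44.5 and 125 CPM, Lta at 8.73, 8.88 and 35.1 CPM and Tnf at 6.5, 11.8 and 24.8 CPM. Ccl5 was highest in central memory, at 0.647, 244 and 19.3 CPM, and Ltb, lymphotoxin beta, was 2.25-fold lower (interval 2.19 to 2.32).

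Of 16 serpins, cathepsins and granule genes 8 were called higher and 2 lower (median 1.01). Serpinb6a, a serpin of cytotoxic cells, was 19.9-fold higher (interval 17.2 to 23) and Serpina3g, which inhibits cathepsins, 65.1-fold higher (interval 46 to 95.5). Ctss, cathepsin S, was 9.92-fold lower (interval 9.03 to 10.9) and Ctsl, cathepsin L, 6.15-fold lower (interval 4.59 to 8.39), while Ctsc, the protease that activates granzymes, had a ratio of 1.1 (interval 1.05 to 1.16). Ctss and Ctsl are also abundant in antigen-presenting cells, whose markers are given above. Rab27a, which docks lytic granules, was 3.49-fold higher (interval 3.32 to 3.67), and its relative Rab27b was at 0 counts in naive and stood at 0, 5.5 and 20.2 CPM.

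The cell surface and cytoskeleton changed member by member. Cytoskeleton genes had 12 of 23 called higher and 1 lower (median 1.27). Tubb6, a beta tubulin, was 70.5-fold higher (interval 56.2 to 89.8), Stmn1, which destabilises microtubules, 117-fold higher (interval 95.9 to 145), and Lmna, lamin A/C, 112-fold higher (interval 56.8 to 261), whereas the actin cross-linker Actn1 stood at 466, 409 and 33.1 CPM and was 14.1-fold lower (interval 13.2 to 15). Tmsb10 had a ratio of 1.09 (interval 1.08 to 1.11). Among 14 integrin subunits 7 were called higher and 3 lower (median 0.85). Itgb1, the shared beta 1 chain, was 7.27-fold higher (interval 6.93 to 7.62) and Itga1, its collagen-binding partner, was at 0 counts in naive and stood at 0, 20.7 and 23.6 CPM. Itga4 and Itga6, other partners of the same chain, were 5.19-fold and 3.78-fold lower. Itgal, the LFA-1 alpha chain, had a ratio of 1.31 (interval 1.29 to 1.33). Itgax, with 0.359, 115 and 9.32 CPM, was highest in central memory.

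Of 19 glycan enzymes 9 were called higher and 4 lower (median 0.87). Among those called higher, Gcnt1, which makes core 2 O-glycans, stood at 0.252, 2.43 and 25.1 CPM, Fut7, which adds the fucose of sialyl Lewis X, at 1.4, 6.39 and 27.6 CPM, and Fut4 had 2 counts in naive and stood at 0.0719, 0.614 and 13.9 CPM. St3gal1, which caps core 1 O-glycans with sialic acid, was 5.82-fold lower (interval 5.4 to 6.27). Cmah, which converts the sialic acid Neu5Ac to Neu5Gc (ENSMUSG00000016756.17, chromosome 13, 24327404 to 24477377), stood at 796, 349 and 105 CPM and was 7.62-fold lower (interval 7.35 to 7.9). St8sia1, a ganglioside sialyltransferase, was 6.04-fold lower (interval 5.62 to 6.51).

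Receptors for small ligands and ion channels differed in both directions. Of 20 G protein coupled receptors 7 were called higher and 5 lower (median 0.14). Called higher were P2ry14, for UDP-glucose, at 0.431, 3.21 and 25.3 CPM, and Ptger2, for prostaglandin E2, at 2.12, 18.1 and 18.9 CPM. S1pr1, which drives exit from lymph nodes, stood at 522, 317 and 29.6 CPM and Cnr2, a cannabinoid receptor, at 57.2, 11.7 and 2.91 CPM, both called lower. Gpr183, an oxysterol receptor, had a ratio of 1 (interval 0.913 to 1.1). Ion channels had 5 of 18 called higher and 5 lower (median -0.36). The 2-pore potassium channel Kcnk5 had 2 counts in naive and stood at 0.0719, 26.3 and 95.7 CPM; the ATP-gated channels P2rx7 and P2rx4 were 11.9-fold and 7.16-fold lower, and Orai2, a subunit of the calcium release-activated channel, 7.01-fold lower. Kcnn4, a calcium-activated potassium channel, had a ratio of 1 (interval 0.963 to 1.04).

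**Figure D4:**
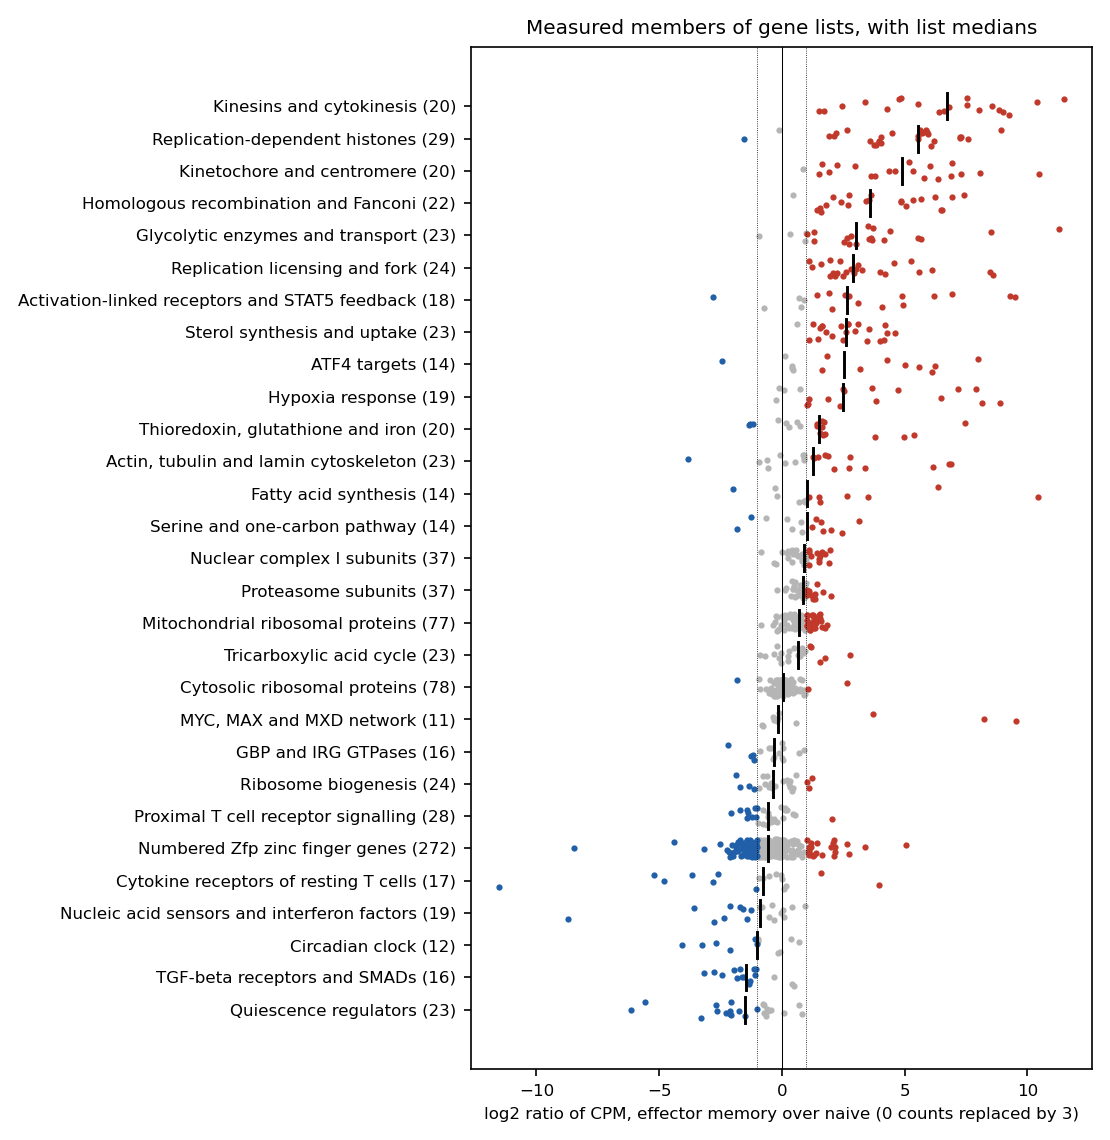
Log2 ratio of CPM, effector memory over naive (0 counts replaced by 3), for the measured members of 29 gene lists; 1 point is 1 gene, red if called higher, blue if called lower and grey otherwise, black bars are list medians, dotted lines mark 2-fold and the number of measured members stands in parentheses. Medians run from 6.71 for kinesins and cytokinesis to -1.52 for quiescence regulators.

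Regulators of the resting state were called lower throughout the list or not at all: of 23 quiescence regulators 13 were called lower and none higher (median -1.52). Btg1, an antiproliferative factor that speeds the decay of messages (ENSMUSG00000036478.8, chromosome 10, 96617006 to 96622809), stood at 1419, 570.0 and 144 CPM and was 9.87-fold lower (interval 9.58 to 10.2). Klf3, a repressor related to KLF2, stood at 301, 105 and 6.29 CPM and was 47.8-fold lower (interval 41.6 to 55.3), and Tsc22d3, a glucocorticoid-induced factor, 6.53-fold lower (interval 6.15 to 6.93). In the FOXO family Foxo1 stood at 399, 224 and 96 CPM and was called lower, and Foxo3 had a ratio of 1.06 (interval 1.01 to 1.11). Vsir, which encodes the inhibitory receptor VISTA, had a ratio of 0.731 (interval 0.712 to 0.751). In each of the 4 genes called lower in the paragraph central memory lay between the other libraries.

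**Figure D5:**
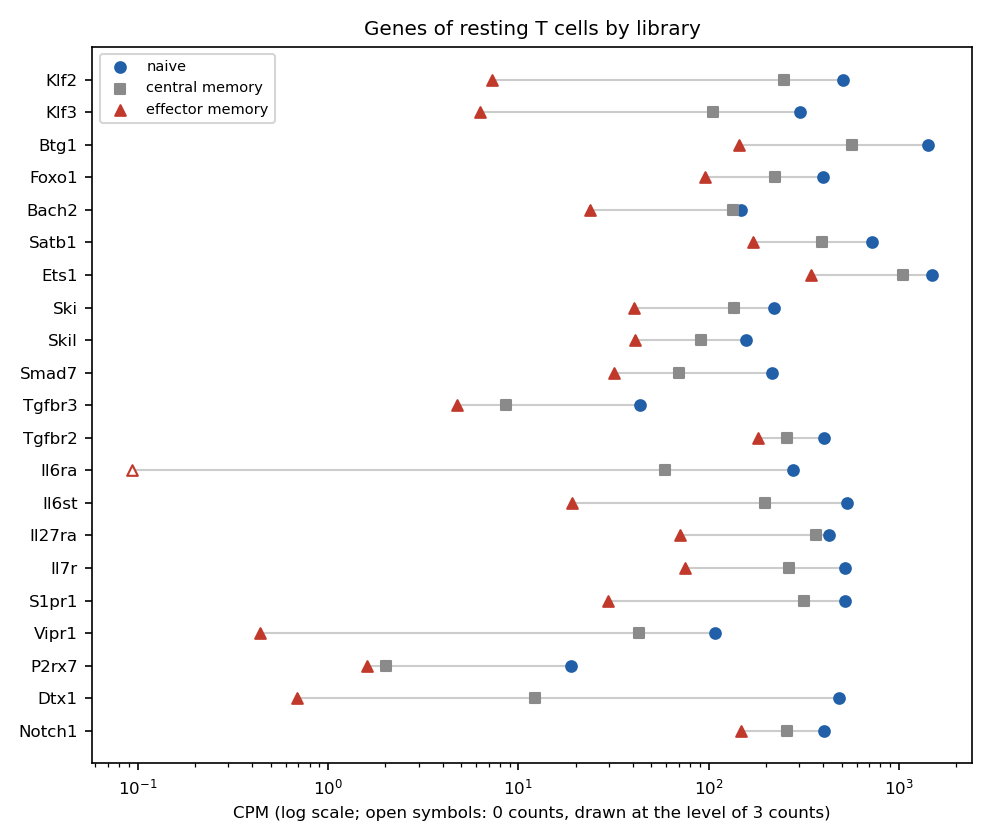
Level in CPM (log scale) of 21 genes of resting T cells in naive (blue circles), central memory (grey squares) and effector memory (red triangles), chosen after their values were seen; the open triangle is Il6ra, at 0 counts in effector memory and drawn at the level of 3 counts. For all 21 genes naive is the highest library and effector memory the lowest.

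TGF-beta receptors, SMADs and SMAD inhibitors were mostly called lower. Of 16 receptor and SMAD pathway genes 13 were called lower and none higher (median -1.45). The co-receptor Tgfbr3 was 9.08-fold lower (interval 7.67 to 10.8). The inhibitors of the pathway were called lower as well: Smad7 stood at 217, 69.8 and 31.7 CPM, Ski at 222, 136 and 40.7 CPM and Skil at 158, 91.3 and 41 CPM. Smad2, which carries the signal, had a ratio of 0.805 (interval 0.748 to 0.867) and Bmpr2 a ratio of 1.33 (interval 1.09 to 1.62). The ligand Tgfb1 was not called, with a ratio of 1.8 (interval 1.73 to 1.87).

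Of 17 cytokine receptors of resting T cells 7 were called lower and 2 higher (median -0.78). Il6st, the gp130 chain that signals for interleukin 6 and its relatives, was 27.9-fold lower (interval 25.7 to 30.3), beside Il6ra at 0 counts in effector memory. Ifngr2, the signalling chain for interferon gamma, was 12.9-fold lower (interval 10.5 to 15.8) while the ligand-binding chain Ifngr1 was 3.03-fold higher (interval 2.92 to 3.14). Central memory shared this, with Ifngr2 at 2.37 and Ifngr1 at 482 CPM. Il10ra, the interleukin 10 receptor, stood at 5.89, 97.2 and 92.1 CPM. Tnfrsf25, which encodes DR3, was 37.5-fold lower (interval 22.1 to 69.2), and Il4ra had a ratio of 0.99 (interval 0.957 to 1.03).

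Of 28 genes of proximal receptor signalling 18 were called in neither direction, 9 lower and 1 higher (median -0.57). Cd6 and Cd5, which restrain the signal, were 4.17-fold and 2.7-fold lower. Dgka, a diacylglycerol kinase that ends it, stood at 1467, 1243 and 447 CPM, and its relative Dgkz had a ratio of 0.979 (interval 0.953 to 1.01). Ubash3b, a phosphatase that acts on ZAP-70, was 4.07-fold higher (interval 3.73 to 4.46). Skap1, an adaptor to integrins, had a ratio of 1.04 (interval 1 to 1.07). In the Notch pathway 5 of 16 were called lower and 2 higher (median -0.08). Notch1 stood at 404, 259 and 148 CPM, the ligase gene Dtx4 at 36.7, 17.2 and 5.35 CPM and Rbpj, the DNA-binding factor of the pathway, at 58.3, 162 and 325 CPM, so receptor and nuclear factor differed in opposite directions. The protease Adam10 had a ratio of 1 (interval 0.965 to 1.04). The GIMAP GTPases of lymphocyte survival had 3 of 8 lower and 1 higher (median -0.65), with Gimap7 at 49.1, 177 and 141 CPM.

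Of 272 measured genes with a numbered Zfp symbol 71 were called lower and 23 higher (median -0.57), of 34 DEAD-box helicases 9 and 2 (-0.25), and of 36 tripartite motif genes 15 and 6 (-0.47). Zfp831 was 21-fold lower (interval 18.2 to 24.4), Zfp608 33.4-fold higher (interval 21.5 to 55), and Zfp683, which encodes the residency factor HOBIT, 6.25-fold higher (interval 5.12 to 7.69). Ddx5, an RNA helicase and one of the largest losses in CPM, stood at 3619.7, 2061 and 1030.0 CPM. Other large losses in CPM were the cytoskeletal linker Macf1 at 3418, 3292 and 745 CPM, the ligase Rnf213, 9.03-fold lower (interval 8.82 to 9.24), and the histone methyltransferase Kmt2d at 1526, 1583 and 414 CPM. Circadian clock genes had 6 of 12 called lower and none higher (median -1.01), with Nr1d2, which encodes REV-ERB beta, at 57, 33.6 and 5.97 CPM and Per1 at a ratio of 0.893 (interval 0.83 to 0.96). The sources used here do not state the hour of sampling.

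Innate sensors and interferon factors were called lower in 9 of 19 measured members and higher in none (median -0.91). Tlr1, a receptor for bacterial lipopeptides, was 11.9-fold lower (interval 10.7 to 13.2), Irf7, the amplifier of interferon responses, 5.08-fold lower (interval 4.73 to 5.46), and Ifi203 6.77-fold lower (interval 6.51 to 7.05). The cytosolic arm was divided: Ddx58, which encodes RIG-I, stood at 224, 113 and 68.4 CPM, whereas Tmem173, which encodes STING, had a ratio of 0.986 (interval 0.941 to 1.03) and the kinase PKR, encoded by Eif2ak2, a ratio of 1.02 (interval 0.954 to 1.09). Interferon-induced GTPases had 4 of 16 lower and none higher (median -0.34). Gbp9 was 4.61-fold lower (interval 4.42 to 4.82) and Gbp2 and Gbp7 were not called, with a ratio of 1.01 (interval 0.974 to 1.05) and a ratio of 1.01 (interval 0.977 to 1.04); the Gbp genes are near copies, and Tgtp2 likewise. MHC class I presentation had 3 of 18 lower and none higher (median -0.12), with H2-T23 2.3-fold lower (interval 2.23 to 2.36) and B2m at a ratio of 1.01 (interval 0.994 to 1.02). The Schlafen genes, several of them interferon-induced, had 4 of 6 lower and 2 higher: Slfn5 stood at 201, 12.5 and 2.22 CPM and was 90.4-fold lower (interval 71.6 to 116), while Slfn9 was 4.94-fold higher (interval 4.47 to 5.47).

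The interferon-stimulated response element, searched on both strands as GAAA, any 2 bases and GAAA again, lay in 3.49% of all windows. Windows existed for 77.3% of genes called lower and 14 of the 19 measured sensor genes. Both are under 80%, so shares over these groups would be void and are not given. Shown are 240 bases before the start of 4 genes that hold the letters, with each match in capitals. They were picked after the matches were seen, with levels given for Slfn5, Ifit1 and Ddx60 only. They are Ifit3 at chr19:34583289-34583528, plus strand, Ifit1 at chr19:34640649-34640888, plus strand, Slfn5 at chr11:82951862-82952101, plus strand and Ddx60 at chr8:61927847-61928086, plus strand. Slfn5 has 1 match and each of the others 2.
Ifit3: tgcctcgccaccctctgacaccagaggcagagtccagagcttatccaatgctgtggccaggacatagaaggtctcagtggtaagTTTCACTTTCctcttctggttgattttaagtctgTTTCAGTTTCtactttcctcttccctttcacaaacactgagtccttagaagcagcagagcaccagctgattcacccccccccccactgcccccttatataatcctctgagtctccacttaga
Ifit1: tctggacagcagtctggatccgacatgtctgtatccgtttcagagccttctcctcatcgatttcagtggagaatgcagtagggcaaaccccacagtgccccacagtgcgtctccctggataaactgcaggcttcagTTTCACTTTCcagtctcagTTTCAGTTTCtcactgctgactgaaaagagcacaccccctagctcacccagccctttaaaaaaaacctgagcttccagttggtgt
Slfn5: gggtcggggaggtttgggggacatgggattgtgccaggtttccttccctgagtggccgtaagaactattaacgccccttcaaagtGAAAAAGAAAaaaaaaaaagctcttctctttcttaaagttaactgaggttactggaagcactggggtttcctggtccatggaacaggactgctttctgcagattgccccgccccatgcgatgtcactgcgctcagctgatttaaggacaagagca
Ddx60: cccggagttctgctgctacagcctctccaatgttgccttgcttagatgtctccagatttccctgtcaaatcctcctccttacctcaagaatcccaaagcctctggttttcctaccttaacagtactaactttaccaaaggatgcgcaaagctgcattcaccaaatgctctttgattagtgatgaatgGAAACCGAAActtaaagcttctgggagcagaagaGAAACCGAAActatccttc

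Ddx60, an antiviral helicase, stood at 82.6, 22.6 and 2.44 CPM and was 33.9-fold lower (interval 27 to 43). Ifit1 stood at 60.5, 3.85 and 1.63 CPM. In both, as in Slfn5, effector memory was the lowest library and naive the highest.

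Among the 42 genes brought to 3 counts or fewer, 22 were at exactly 0 and 14 were at 3 counts or fewer in central memory too. Apart from receptor segments and from the genes already named, they included Izumo1r, the folate receptor 4 of T cells, at 20.8, 3.63 and 0.0625 CPM, Ampd1, AMP deaminase, at 17.9, 0.837 and 0.0313 CPM, and Nrp2, a semaphorin co-receptor, at 10.1, 0.112 and 0 CPM. Rgmb, a ligand in BMP signalling, stood at 10.1, 1.12 and 0 CPM and Plaur, the urokinase receptor, at 6.36, 0.502 and 0 CPM. Pou2af1, a B cell coactivator, stood at 13.5, 3.68 and 0 CPM and the MHC class II chain H2-Aa at 6.83, 0.279 and 0 CPM. Beside these 2, Cd79b stood at 14.6, 2.76 and 2.19 CPM, and the B cell list summed to 37.5 CPM in naive and 4.44 in effector memory; the part of B cells was not tested.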

How the data were processed

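Total RNA from 3 subsets of mouse spleen CD8+ T cells was sequenced as 1 library per subset. The deposited table holds read counts per gene symbol; per the submitters' processing notes, the tools were featureCounts 1.5.0-p3, HISAT2 2.0.5 and CASAVA, on mm10. The sources used here do not state the annotation, the strand setting or how reads with several matches were counted. Without strand, overlapping and antisense genes cannot be told apart. The column abbreviations TN, TCM and TEM were read as naive, central memory and effector memory.

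From these counts, CPM were computed with TMM factors (edgeR 4.0.16) over all libraries of the series, and ratios with exact Clopper-Pearson intervals (SciPy 1.17.1). Of the gene symbols 98.7% matched GENCODE M21. There were 48 gene lists and 16 symbol families. The members and lists were chosen with earlier results of these data known. Named genes were the 12 per direction most extreme by interval bound and by CPM difference (at least 20 CPM in the higher library for the first; Gm and Rik symbols and receptor segments left out), up to 4 called members per list and direction, up to 2 measured members with a ratio nearest 1, and label checks that included Cd8a, Cd8b1, Cd3e and Cd44. A few genes are not reported here. Some genes the rule takes are not given; markers, genes near 0 counts, Gapdh, Adm, Ifng, Il2, Myc, Foxo1 and the genes with printed promoters were chosen after their values were seen. No set test was run. Alternatives were other scalings (upper quartile, ribosomal protein counts, total counts and the size factors of DESeq2 1.42.0), minimum levels of 1 and 20 CPM, ratios of 1.5 and 4, log2(CPM + 1), removal of trends with GC content and length, an added coefficient of variation, and counts halved to pairs.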

Additional observations from a re-analysis of the deposited data

How the results depend on the processing

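No paired analysis was possible because each group has 1 library, and for the same reason no library could be left out. At a ratio of at least 4, 1133 genes were called higher and 524 lower; at 1.5, 3225 and 2649. The 4 other scalings gave 2066 to 2195 higher and 1662 to 1819 lower, and moved the median log2 ratio of the measured genes from 0.06 to between -0.05 and 0.02; 336 to 340 of the 340 named called genes kept their call. With the GC and length trend removed 322 kept it, at 20 CPM 291 and at a ratio of 4 229; none reversed under these alternatives. A coefficient of variation of 0.2 per library left both counts as they were, because at these depths it widens the interval by less than the 2-fold minimum, so it says nothing about spread between animals; one of 0.4, chosen after seeing the data, left 1418 higher and 725 lower and kept 272 of the 340. Halving counts to pairs of reads, also chosen later, changed neither count. Genes gained from at most 3 counts numbered 85 at 20 CPM and 312 from at most 10 counts; genes lost numbered 15 at 20 CPM, 22 at exactly 0 counts and 70 at or under 10 counts. List medians changed sign only where they were near 0. Amino acid transporters (0.08) gave -0.024 by total counts, -0.021 by ribosomal protein counts, -0.028 by upper quartile and -0.065 at 20 CPM. Ribosomal proteins (0.03) gave -0.069 by total counts, -0.072 by upper quartile, -0.065 by ribosomal protein counts, -0.001 by DESeq2 factors and -0.42 with the GC and length trend removed. Genes with a Gpr symbol (0.03) gave -0.072 by total counts, -0.069 by ribosomal protein counts, -0.075 by upper quartile, -0.005 by DESeq2 factors and -0.035 with the trend removed. Solute carriers gave 0.048 at 1 CPM and 0.041 with the trend removed, and Rab GTPases 0.30 at 1 CPM. The cause was not tested. Depth limits genes near 0: 3 counts equal 0.108 CPM in naive and 0.0938 in effector memory, and 3 pairs 2 times as much.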

Other observations

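Some broad families showed no lean to either side. Of 143 measured solute carriers 31 were called higher and 29 lower, with a median log2 ratio of -0.001. Slc43a3, a purine nucleobase transporter, stood at 1.47, 12.2 and 122 CPM, Slc52a3, a riboflavin transporter, at 0.97, 4.83 and 34.6 CPM, and Slc12a7, a potassium-chloride cotransporter, at 598, 195 and 46.1 CPM. Amino acid transporters had 2 of 12 higher and 1 lower: Slc7a5, the light chain of the large neutral amino acid transporter, was 2.98-fold higher (interval 2.84 to 3.14), while the cationic transporter Slc7a1 had a ratio of 1.02 (interval 0.973 to 1.07). Of 36 Rab GTPases 5 were higher and 6 lower, of 20 receptors with a Gpr symbol 4 and 3, with Gpr141 at 0.0719, 2.74 and 152 CPM and Gpr174 at 129, 78.2 and 29.8 CPM. Of 20 autophagy and lysosome genes 2 were called higher and none lower (median 0.14); Gabarapl1, an ATG8 family member, was 39.4-fold higher (interval 29.7 to 53.5).

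Translation initiation factors had 9 of 53 called higher and 1 lower (median 0.38), a family chosen by symbol that also takes the Eif2ak kinases. Eif5a stood at 367, 497 and 1202 CPM and Eif4a2 at 1185, 498 and 407 CPM, Eif4a2 being the member called lower. Of 16 mitochondrial import genes 1 was called higher and 1 lower (median 0.68). Of 4 measured Y-linked genes, Ddx3y, Eif2s3y, Kdm5d and Uty, Ddx3y was called lower, at 246, 109 and 78.3 CPM, and Eif2s3y and Uty had a ratio of 0.909 (interval 0.866 to 0.954) and a ratio of 0.857 (interval 0.785 to 0.935). Histone variants had 9 of 13 higher and none lower (median 2.02); H1f0, a linker histone usually linked to arrest of division, was 76.9-fold higher (interval 62.2 to 96.2) and H3f3a had a ratio of 1.05 (interval 1.02 to 1.08).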
